A study of Mus musculus with 4 samples.

Results

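The genes described here are those of 7 enzymes that use tryptophan or work along the kynurenine pathway: Ido1, Tdo2, Afmid, Kmo, Kynu, Haao and Wars1. They were chosen by name, for their place in the pathway, and every probe set that the array's annotation assigns to one of them alone was taken. The 7 genes, of 12393 named on the array, had 11 probe sets of the 22626 tested, with 4 for Wars1 (annotated as Wars), 2 for Tdo2 and 1 for each of the other genes. A probe set is a group of short probes to 1 transcript region, and its value here is a log2 value.

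Total RNA of splenic dendritic cells (DC) was hybridised to Affymetrix mouse arrays, 4 in all and 1 for each sample. The mice were female C57BL/6, aged 8 to 12 weeks, with 3 mice per group. The treated group received TCDD, a dioxin that activates the aryl hydrocarbon receptor (AhR), at 10 µg/kg in corn oil by intraperitoneal injection 24 h before the cells were taken. The control group received the DMSO solvent in corn oil by the same route and for the same time. No genotype other than the C57BL/6 strain is labelled. Pooled spleens were homogenized, density centrifugation enriched the DC, magnetic bead sorting brought them to over 90% purity, and their RNA was amplified. Each group has 2 arrays numbered as biological replicates, but the sources used here do not say if the arrays of a group came from separate mice, so the p-values below measure the spread between these arrays. In pooled cells, fewer cells of a type and less RNA per cell cannot be told apart.

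Most tryptophan that is not built into protein is broken down along the kynurenine pathway. IDO1, an interferon-inducible enzyme of immune cells, and TDO2, best known from the liver, open the indole ring of tryptophan, and AFMID turns the product into kynurenine. KMO, KYNU and HAAO then carry kynurenine on towards quinolinate, the precursor for synthesis of NAD. Kynurenine and some of its products bind AhR, and IDO1 in DC is known for restraining T cells by using up tryptophan and by making these products. WARS1 uses the same amino acid in another way: it loads tryptophan onto its transfer RNA for protein synthesis, and it too is induced by interferon-gamma.

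The ligand-bound AhR complex recognises DNA with the core letters GCGTG. The RefSeq promoter table (GRCm38.p6) held an entry for 4 of the 7 genes: Tdo2, Afmid, Kmo and Haao. The 250 bases before the transcription start were searched on both strands for GCGTG, which reads CACGC on the other strand. Haao and Tdo2 each held 1 copy, whose first printed base lies 137 and 194 bases before the start. Kmo and Afmid held no copy in this window. Of all 32851 promoters in the table, 28.2% held the core, so a match is a description of the letters and not a binding site. The sequences of Kmo, the gene with the largest difference below, and of the promoters with a match are shown 5′ to 3′ on the gene's strand, with the core in capitals. Kmo is at chr1:175631943-175632192 on the plus strand, Haao at chr17:83846791-83847040 on the minus strand and Tdo2 at chr3:81975729-81975978 on the minus strand.
Kmo: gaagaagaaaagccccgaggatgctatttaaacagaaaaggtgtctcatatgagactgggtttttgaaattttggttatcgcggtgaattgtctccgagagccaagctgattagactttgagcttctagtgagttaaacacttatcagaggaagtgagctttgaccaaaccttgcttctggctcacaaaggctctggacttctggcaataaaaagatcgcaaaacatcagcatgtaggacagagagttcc
Haao: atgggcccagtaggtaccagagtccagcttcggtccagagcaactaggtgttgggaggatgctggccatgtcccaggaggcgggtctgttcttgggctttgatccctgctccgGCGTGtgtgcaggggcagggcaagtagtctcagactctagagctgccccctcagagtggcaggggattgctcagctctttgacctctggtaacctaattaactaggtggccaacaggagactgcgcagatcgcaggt
Tdo2: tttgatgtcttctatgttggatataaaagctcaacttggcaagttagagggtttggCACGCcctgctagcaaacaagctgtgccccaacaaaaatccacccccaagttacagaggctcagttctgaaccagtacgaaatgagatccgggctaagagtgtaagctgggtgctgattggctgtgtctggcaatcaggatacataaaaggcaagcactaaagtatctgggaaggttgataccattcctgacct

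No probe set of the 7 genes passed the test for a difference between TCDD and DMSO. Kmo lay lower in TCDD and Ido1 higher, in both cases with no overlap between the groups, and the other 5 genes gave small or conflicting differences. Limma called 0 of the 11 probe sets at an adjusted p under 0.05, with adjusted p-values from 0.401 to 1.0. Over the whole array it called 0 of 22626 probe sets, or 0%. At an unadjusted p under 0.05 there were 0 of the 11 and 2958 of all probe sets, or 13.1%. The groups did not overlap in 3 of the 11 probe sets, 1 higher and 2 lower in TCDD. Over all probe sets the share without overlap was 37.4%, made of 19.0% higher and 18.4% lower, so the share among the 11 was near that of the array. The median difference of the 11 was -0.05 on the log2 scale, and that of all probe sets was 0.00.

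**Figure D1:**
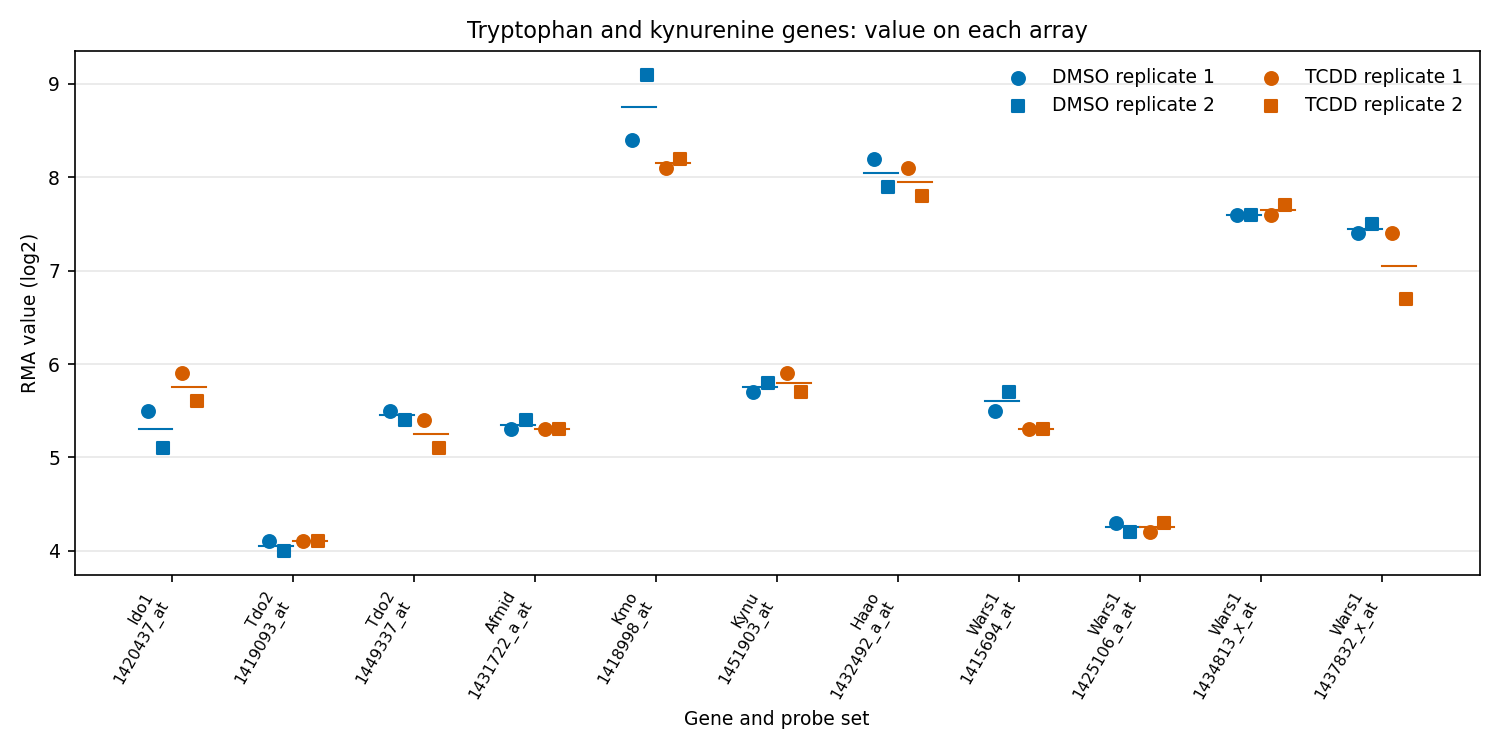
RMA value on the log2 scale (vertical axis) on each of the 4 arrays for the 11 probe sets of the 7 genes (horizontal axis); blue marks DMSO, orange marks TCDD, circles are replicate 1, squares are replicate 2 and short lines are group means. Kmo goes from 8.4 and 9.1 in DMSO to 8.1 and 8.2 in TCDD, Ido1 goes the other way from 5.5 and 5.1 to 5.9 and 5.6, and most other probe sets overlap.

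Of the enzymes that start the pathway, Ido1 had 1 probe set (1420437_at). Its log2 values were 5.5 and 5.1 on the DMSO arrays and 5.9 and 5.6 on the TCDD arrays. Both TCDD arrays lay above both DMSO arrays, TCDD replicate 2 by 0.1 above DMSO replicate 1, the smallest step these rounded values can show. The difference was 0.45 (SE 0.213, n = 2 arrays per group), or 1.37-fold, with a 95% interval from -0.22 to 1.12 and a limma adjusted p of 0.444. Ido1 stood at the low end of the scale: its mean over the 4 arrays, 5.525, equalled the 40th percentile of all probe sets, which is used here as the threshold for dim probe sets. Its DMSO mean of 5.30 lay below this threshold and its TCDD mean of 5.75 above it. At DMSO values from 5 to 6, where the Ido1 probe set lies, 27.4% of 5691 probe sets were higher in TCDD without overlap. A difference at least as far up as that of Ido1 was seen in 9.66% of them. Without DMSO replicate 2 the difference was 0.25.

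Tdo2, the other ring-opening enzyme, had 2 probe sets, both below the dim threshold. On 1419093_at the values were 4.1 and 4.0 on the DMSO arrays and 4.1 and 4.1 on the TCDD arrays, a difference of 0.05 (SE 0.0745) with a 95% interval from -0.19 to 0.29. On 1449337_at they were 5.5 and 5.4 on the DMSO arrays and 5.4 and 5.1 on the TCDD arrays, a difference of -0.20 (SE 0.143) with an interval from -0.65 to 0.25. The groups overlapped or touched on both probe sets. Below the dim threshold a change of the transcript need not show.

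Afmid, the formamidase that releases kynurenine, lay at 5.3 and 5.4 on the DMSO arrays and 5.3 and 5.3 on the TCDD arrays. The arrays were within 0.1 of each other. The difference was -0.05 (SE 0.0745, 95% interval -0.29 to 0.19), and this probe set too lay below the dim threshold.

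Kmo, the monooxygenase that makes 3-hydroxykynurenine, had the largest difference of the 11 probe sets. Its values were 8.4 and 9.1 on the DMSO arrays and 8.1 and 8.2 on the TCDD arrays. Both TCDD arrays lay below both DMSO arrays, but the DMSO arrays were further apart than the group means. The difference was -0.60 (SE 0.294, n = 2 arrays per group), or 0.66-fold, with a 95% interval from -1.53 to 0.33 and a limma adjusted p of 0.444. Without DMSO replicate 2 the difference was -0.25, and without DMSO replicate 1 it was -0.95. Bright probe sets were lower in TCDD across the array: of 1789 probe sets at DMSO values from 8 to 9 the median difference was -0.35, and 32.3% were lower by as much as Kmo or more. Quantile normalization between the arrays brought the Kmo difference to -0.25 and cyclic loess to -0.32. Median centring, which only aligns the array medians, gave -0.65.

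Kynu, the kynureninase, lay at 5.7 and 5.8 on the DMSO arrays and 5.9 and 5.7 on the TCDD arrays. The groups overlapped, and the difference was 0.05 (SE 0.11, 95% interval -0.30 to 0.40), which turned to -0.016 under cyclic loess normalization. Haao, the dioxygenase that follows it, lay at 8.2 and 7.9 on the DMSO arrays and 8.1 and 7.8 on the TCDD arrays. Replicate 1 was the higher array in both groups, and the groups overlapped. The Haao difference was -0.10 (SE 0.183, 95% interval -0.68 to 0.48); it was 0.19 under quantile normalization and 0.14 under cyclic loess, so its sign depended on the scaling.

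**Figure D2:**
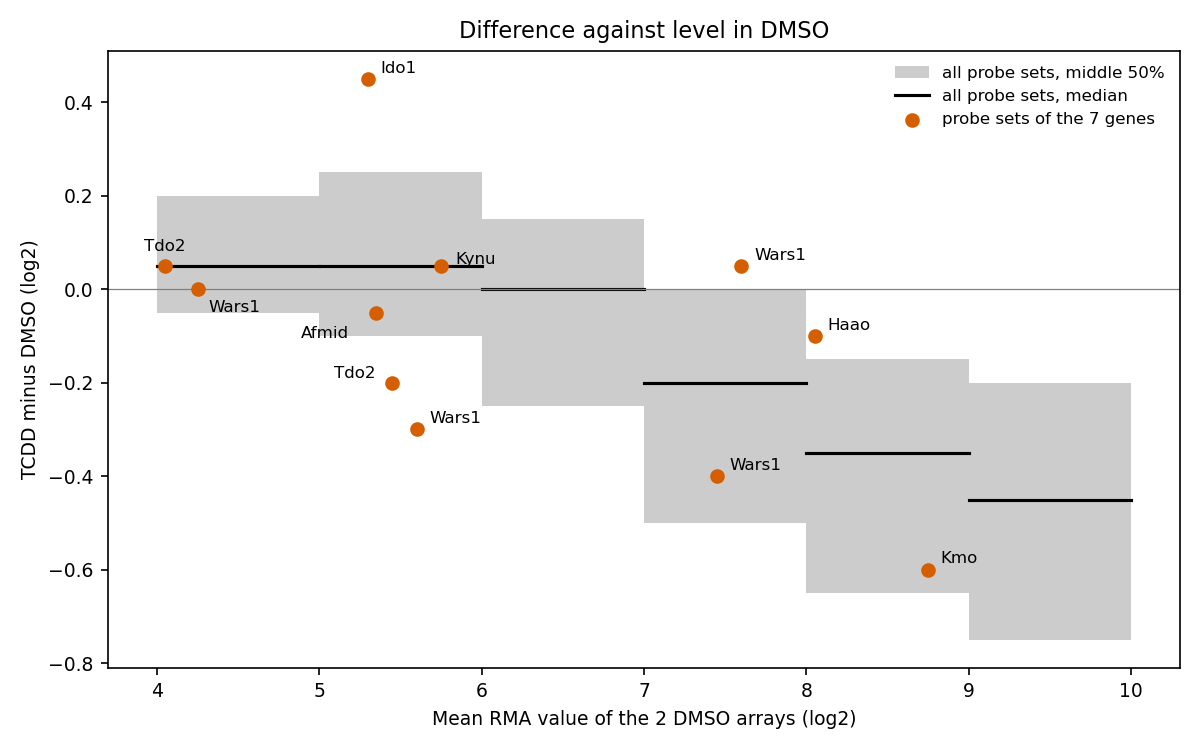
Difference TCDD minus DMSO (log2, vertical axis) against the mean value of the 2 DMSO arrays (log2, horizontal axis) for the 11 probe sets (orange points), with the median (black line) and the middle 50% (grey) of all probe sets in steps of 1 on the log2 scale. The array-wide median goes from 0.05 at DMSO values of 4 to 6 down to -0.45 at 9 to 10; Kmo at -0.60 lies inside the grey band at its level and Ido1 at 0.45 lies above it.

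The 4 probe sets of Wars1, the tryptophanyl-tRNA synthetase, did not share a direction. On 1415694_at the values were 5.5 and 5.7 on the DMSO arrays and 5.3 and 5.3 on the TCDD arrays, with both TCDD arrays below both DMSO arrays. The difference was -0.30 (SE 0.102, 95% interval -0.62 to 0.024), with the smallest p of the 11 (limma unadjusted p = 0.0603, adjusted p = 0.401), on a probe set below the dim threshold. On 1434813_x_at, the brightest, the values were 7.6 and 7.6 on the DMSO arrays and 7.6 and 7.7 on the TCDD arrays. These arrays were within 0.1 of each other, and the difference was 0.05 (SE 0.0745, 95% interval -0.19 to 0.29), or 0.31 under quantile normalization. On 1437832_x_at they were 7.4 and 7.5 on the DMSO arrays and 7.4 and 6.7 on the TCDD arrays. The low value came from TCDD replicate 2 alone: the difference was -0.40 (SE 0.294), and it was -0.05 without that array and -0.75 without TCDD replicate 1. The dim 1425106_a_at lay at 4.3 and 4.2 on the DMSO arrays and 4.2 and 4.3 on the TCDD arrays, a difference of 0.00. Averaged over its 4 probe sets Wars1 differed by -0.16 (limma adjusted p = 0.444).

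**Figure D3:**
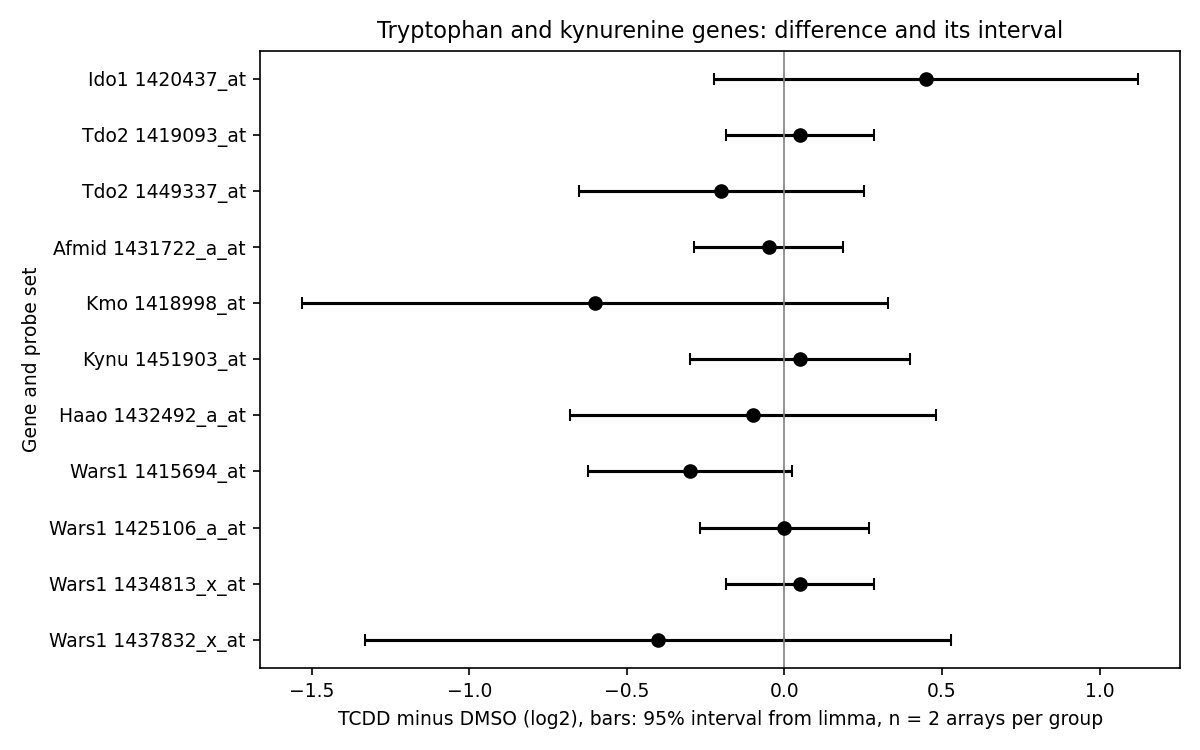
Difference TCDD minus DMSO (log2, horizontal axis) for each of the 11 probe sets (vertical axis); points are the differences and bars the 95% intervals from limma with n = 2 arrays per group. Every bar crosses 0; the widest are those of Kmo (-1.53 to 0.33) and of Wars1 1437832_x_at (-1.33 to 0.53).

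These intervals bound what the arrays could show. In 8 of the 11 probe sets the 95% interval lay within -1 and 1 on the log2 scale, that is, within a 2-fold difference either way. The exceptions were Ido1, Kmo and Wars1 1437832_x_at. Of the 8, 5 were dim.

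The other enzymes of tryptophan breakdown were taken as a list of 12 genes, of which 9 had a probe set; for these lists each gene is given by its brightest probe set. With 1 probe set per gene limma called 0 of 12393 genes over the array, or 0%; at an unadjusted p under 0.05 there were 14.5%, and 20.0% lay higher and 19.4% lower without overlap. Of the 9 genes 0 were called, 2 had an unadjusted p under 0.05, and 1 lay higher and 1 lower without overlap; the median difference was 0.00, as over all genes. Il4i1, the secreted amino acid oxidase of myeloid cells whose tryptophan products activate AhR, lay at 6.6 and 6.4 on the DMSO arrays and 6.9 and 6.8 on the TCDD arrays. Its groups did not overlap, and the difference was 0.35 (SE 0.11, limma unadjusted p = 0.0496, adjusted p = 0.379). Got2, a mitochondrial aminotransferase that can also make kynurenic acid, lay at 10.5 and 10.2 on the DMSO arrays and 9.7 and 9.6 on the TCDD arrays, a difference of -0.70 (SE 0.143, adjusted p = 0.349). Both TCDD arrays were lower, and the second Got2 probe set differed by -0.35; the probe set is bright, and its difference was -0.36 under quantile normalization and -0.40 under cyclic loess. Ido2, the close relative of Ido1, was dim and lay at 4.7 and 4.9 on the DMSO arrays and 4.8 and 4.9 on the TCDD arrays.

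Of 9 genes that use tryptophan outside the kynurenine route, 5 were measured, 0 called and 0 at an unadjusted p under 0.05, with a median difference of 0.05. Tph1, which starts serotonin synthesis, lay at 4.7 and 4.8 on the DMSO arrays and 4.9 and 5.3 on the TCDD arrays, all below the dim threshold, and 1 of the 5 genes, Tph1 itself, did not overlap. Of 6 transporters 3 were measured, 0 called and 0 at an unadjusted p under 0.05, with a median difference of -0.15. The transporter of large neutral amino acids is built of Slc7a5 and Slc3a2 and carries tryptophan and kynurenine. Slc3a2 lay at 8.5 and 8.0 on the DMSO arrays and 7.6 and 7.9 on the TCDD arrays, without overlap, a difference of -0.50 (SE 0.245, limma adjusted p = 0.444), which was -0.23 under quantile normalization, -0.26 under cyclic loess and -0.25 without DMSO replicate 1. Slc7a5 lay at 7.6 and 7.7 on the DMSO arrays and 7.7 and 7.3 on the TCDD arrays; it overlapped, and its difference of -0.15 became 0.10 under quantile normalization and 0.032 under cyclic loess.

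Wars1 belongs to the aminoacyl-tRNA synthetases, of which 17 of 19 others were measured. Of these 0 were called, 1 had an unadjusted p under 0.05, 2 lay higher and 3 lower without overlap, and the median difference was -0.10; it was 0.063 under quantile normalization and 0.045 under cyclic loess. Kars1, for lysine, lay at 8.1 and 7.9 on the DMSO arrays and 6.0 and 7.6 on the TCDD arrays, a difference of -1.20 (SE 0.658) that was -0.40 without TCDD replicate 1. Aars1, for alanine, lay at 7.1 and 7.0 on the DMSO arrays and 7.7 and 7.7 on the TCDD arrays, a difference of 0.65 (SE 0.0745, limma adjusted p = 0.349), but its other probe set differed by -0.50. Gars1, for glycine, differed by -0.45 (-0.26 under quantile normalization) and Qars1, for glutamine, by 0.40 (0.79 under quantile normalization). The 3 other Qars1 probe sets differed by -0.45, -0.05 and 0.05, so disagreement between probe sets of 1 gene was not limited to Wars1.

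Shortage of tryptophan is sensed by the kinase GCN2, encoded by Eif2ak4, which acts through the factor ATF4. Of 11 genes of this response 10 were measured, 0 called and 0 at an unadjusted p under 0.05; 4 lay higher and 0 lower without overlap, against 20.0% and 19.4% over all genes, and the median difference was 0.025, or 0.22 under quantile normalization. Phgdh, the first enzyme of serine synthesis, lay at 8.2 and 7.9 on the DMSO arrays and 8.5 and 8.9 on the TCDD arrays, a difference of 0.65 (SE 0.213, limma adjusted p = 0.386). Both TCDD arrays were higher; its 3 other probe sets differed by 0.20, 0.60 and 0.00. The ATF4 target genes Trib3, Chac1 and Sesn2, named because their groups did not overlap, differed by 0.30, 0.25 and 0.10. Trib3 and Chac1 lay at DMSO values from 5 to 6, where 27.4% of all probe sets were higher without overlap. Sesn2 lay at 6.9 on both DMSO arrays and 7.0 on both TCDD arrays, the smallest step of these values. The 6 other measured genes of the list overlapped, and of the 10 differences 5 were above 0 and 5 below. Eif2ak4 lay at 5.6 and 6.4 on the DMSO arrays and 5.8 and 5.0 on the TCDD arrays, with overlapping groups.

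Interferon-gamma is the best known inducer of both Ido1 and Wars1. Of 16 genes of its signalling and response 15 were measured, 0 called and 2 at an unadjusted p under 0.05; 1 lay higher and 5 lower without overlap, and the median difference was -0.20; it was 0.00 under quantile normalization and -0.059 under cyclic loess. The receptor chain gene Ifngr1 lay at 10.0 and 9.7 on the DMSO arrays and 8.9 and 9.2 on the TCDD arrays, a difference of -0.80 (SE 0.183, limma adjusted p = 0.379). The chemokine gene Cxcl9 lay at 9.4 and 9.3 on the DMSO arrays and 8.3 and 8.8 on the TCDD arrays, also a difference of -0.80 (SE 0.216, adjusted p = 0.379). Both are bright probe sets, where the array as a whole was lower in TCDD, with a median of -0.45 at DMSO values from 9 to 10. Under quantile normalization Ifngr1 differed by -0.39 and Cxcl9 by -0.44, and under cyclic loess by -0.49 and -0.50. Ciita, the regulator of class II genes, differed by -0.55 on its brightest probe set, by -0.34 there under quantile normalization, by -0.30 without DMSO replicate 1 and by 0.05 on its other probe set. Socs1, the feedback inhibitor, lay at 5.8 and 5.7 on the DMSO arrays and 6.1 and 6.7 on the TCDD arrays, a difference of 0.65 (SE 0.255) that was 0.35 without TCDD replicate 2 and 0.95 without TCDD replicate 1. The transcription factor gene Irf1 overlapped, at 9.8 and 9.6 on the DMSO arrays and 9.2 and 9.8 on the TCDD arrays; its difference of -0.20 became 0.18 under quantile normalization and 0.11 under cyclic loess. Ifng itself was dim, at 4.7 and 4.3 on the DMSO arrays and 5.0 and 4.6 on the TCDD arrays.

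**Figure D4:**
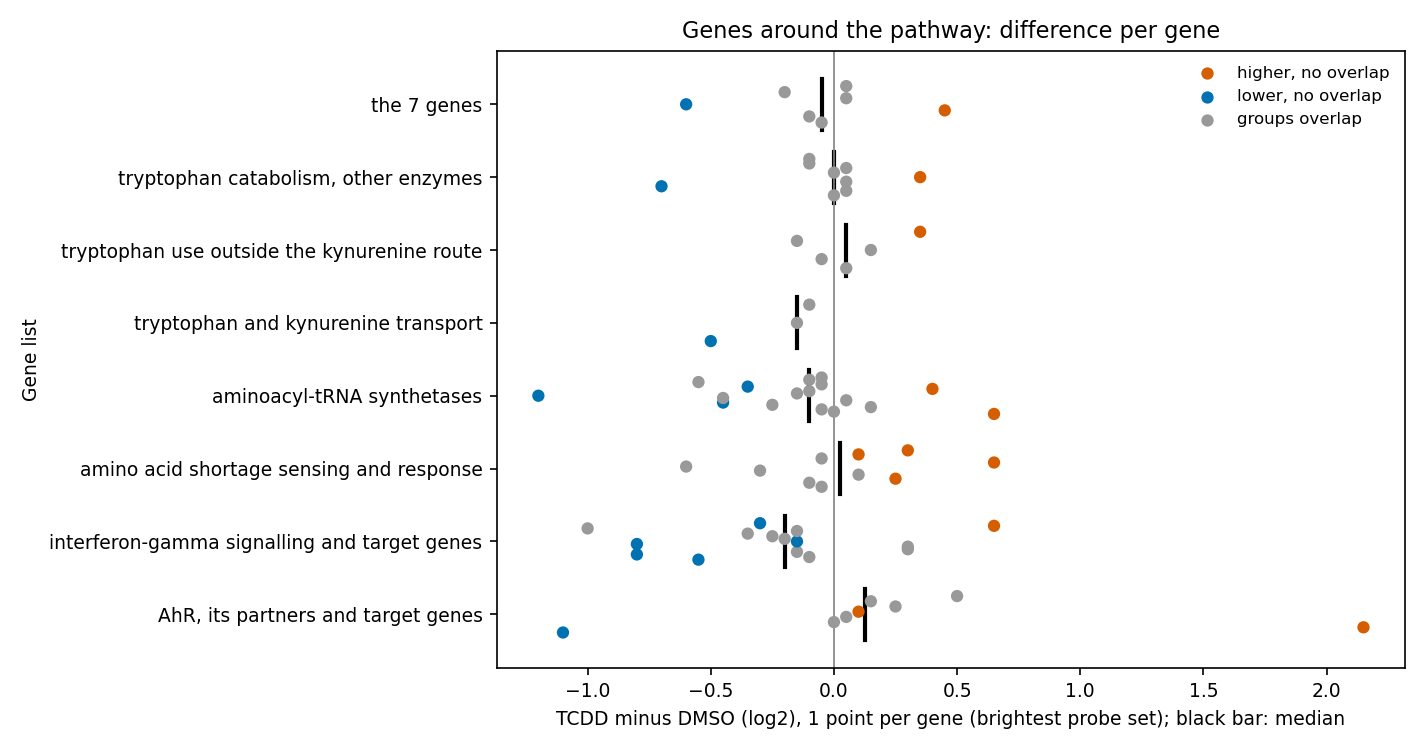
Difference TCDD minus DMSO (log2, horizontal axis) for each gene by its brightest probe set, in rows by gene list; orange points lay higher and blue points lower in both TCDD arrays than in both DMSO arrays, grey points overlapped, and black bars are list medians. On the values as deposited medians run from -0.20 for interferon-gamma genes (0.00 under quantile normalization) to 0.13 for AhR and its targets (-0.025 without TCDD replicate 1), and the far point at 2.15 is Ahrr.

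As a sign of exposure, the AhR target Ahrr had a limma adjusted p of 0.349 and a difference of 2.15. Cyp1a1 differed by 0.05 and Cyp1a2 by 0.10, but both probe sets were dim, so a response of either gene could be missed. Cyp1a2 lay at 5.4 on both DMSO arrays and 5.5 on both TCDD arrays. That step of 0.1 alone placed it among the genes higher without overlap. Tiparp lay at 8.3 on both DMSO arrays and on TCDD replicate 2 and at 9.3 on TCDD replicate 1, so its difference of 0.50 came from that array and was 0.00 without it; its other probe sets differed by -0.15 and 0.05. The brightest Ahr probe set lay at 8.8 and 9.7 on the DMSO arrays and 8.6 and 7.7 on the TCDD arrays, a difference of -1.10 (SE 0.521). This difference was -0.775 under quantile normalization. It was -0.65 without replicate 2 of either group and -1.55 without replicate 1 of either group. The other Ahr probe set differed by 0.45. Of the 8 genes of this list 0 were called and 1 had an unadjusted p under 0.05 by limma. Without overlap 2 lay higher and 1 lower. The median difference was 0.13, with -0.025 without TCDD replicate 1 and 0.38 without dim probe sets. The dim threshold is set on the mean of all arrays, so which genes stay depends in part on the TCDD values. Ahrr, with a DMSO mean of 5.35 below the threshold, stayed in only through its TCDD mean of 7.5. Cyp1a1 and Cyp1a2, with DMSO means of 5.3 and 5.4, dropped out. The median of 0.38 is therefore no independent check of the list. The differences of Ido1 and of the 6 other genes by their brightest probe sets, from -0.60 to 0.45, were all smaller in size than that of Ahrr.

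The array-wide pattern nearest to Ido1 and to Kmo was looked up among 8767 genes, as the root mean square distance over the 4 arrays after each probe set's own mean was subtracted. For Kmo the nearest was Irf9, a subunit of the type I interferon signalling factor, at 7.2 and 7.9 on the DMSO arrays and 6.9 and 7.0 on the TCDD arrays, with a distance of 0.00 in values rounded to 1 decimal. Asap1 and Ppp1r15b followed at 0.0433, where 3 genes were tied. For Ido1 the 3 named by the rule were Clip2, Dnajc17 and Dppa3, each at 0.0433 and among 5 genes tied there. With 4 arrays and so many genes, near matches describe these arrays and no more.

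Limma called 0 of the cell type markers measured. Lists of bright markers held many genes lower without overlap. Bright probe sets in general were often lower too: 40% of all probe sets lay lower without overlap at DMSO values from 8 to 9 and 45.6% from 9 to 10. The median difference of all probe sets was -0.35 at values from 8 to 9 and -0.45 from 9 to 10. The median DMSO value was 8.8 for markers of type 1 conventional DC and 8.5 for those of macrophages and monocytes. Of 9 measured markers of type 1 conventional DC, 5 lay lower without overlap and 0 higher, with a median difference of -0.55. By limma 4 of the 9 had an unadjusted p under 0.05, all lower, against 14.5% of all genes in either direction. The sum of their log2 values was 79.3 to 79.8 in DMSO and 74.2 on both TCDD arrays, with Xcr1 below the dim threshold. Of 15 macrophage and monocyte markers 6 lay lower and 0 higher, with sums of 127.8 to 130.0 in DMSO and 120.3 to 120.7 in TCDD. Their median difference was -0.60, and by limma 3 of the 15 had an unadjusted p under 0.05, all lower. Of 9 neutrophil markers 3 lay higher and 0 lower, with sums of 52.0 to 55.5 in DMSO, 67.2 in TCDD replicate 1 and 54.2 in TCDD replicate 2. TCDD replicate 1 is also the array with the highest Ido1 value, and its 3′ to middle gap for the Gapdh control was 3.6 against 1.5 to 2.1 on the other arrays. All 8 general DC markers, among them Itgax, Flt3, Zbtb46 and the class II gene H2-Aa, lay above the dim threshold. Of these 4 lay lower without overlap and 0 higher. All 8 differences were below 0, with a median of -0.575, and 0 had an unadjusted p under 0.05 by limma. Among markers of type 2 conventional DC, with a median DMSO value of 7.85, 3 of 7 lay lower and 0 higher. Their median difference was -0.50, and by limma 2 of the 7 had an unadjusted p under 0.05, both lower. Among markers of plasmacytoid DC 1 of 4 lay higher and 0 lower without overlap. For B cells these counts were 2 higher and 3 lower of 8, for T cells 1 and 1 of 6, for NK cells 0 and 1 of 6 and for erythroid cells 2 and 0 of 5. The part of these marker values in the Kmo and Ido1 values was not tested.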

How the data were processed

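The authors deposited log2 values from RMA for the 4 arrays, as the submitters' processing notes name it. RMA commonly subtracts background, equalizes the arrays by quantiles and combines each probe set's probes into 1 value. The deposited columns are not fully equalized: the upper quartile was 7.2 for DMSO replicates 1 and 2 but 7.1 and 7.0 for those of TCDD. Which steps were run is not known here. The labels name no software for it. The values lie on steps of 0.1. Of 22690 probe sets 64 Affymetrix controls were left out. By the platform's annotation 20380 of the other 22626 have 1 gene symbol, 691 several and 1555 none; genes were named from those with 1. No further normalization was applied.

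Each probe set's TCDD minus DMSO difference was fitted on all 4 arrays by limma (version 3.58.1, under R 4.3.3; lmFit, then eBayes, two-sided, no block), with Benjamini-Hochberg adjustment over 22626 probe sets and a call at an adjusted p under 0.05. The code was tested on simulated data. Exact permutation cannot go below p = 0.33 with 2 arrays against 2, so none was run. Arrays give no counts, and their number limits the precision.

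The genes and lists were chosen with earlier results of these data known. Every probe set of the 7 genes is named, with up to 4 genes per list that did not overlap, by size of difference, 13 fixed names, and the 3 genes nearest in pattern to each gene of the 7 whose brightest probe set spans at least 0.5. Alternatives were other scalings, no dim probe sets, other priors, a replicate block, other probe set rules and leaving out each array. Whether replicate numbers pair arrays is not given; the deviations of same-numbered arrays correlated at -0.189.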

Additional observations from a re-analysis of the deposited data

How the results depend on the processing

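Limma called 0 probe sets over the array, 0 of the 11 and 0 of the genes in the lists under each alternative run, including the replicate block and each array left out. The crossed replicate block also called 0. It was added after the data were seen, because same-numbered arrays deviated weakly in opposite directions over all probe sets (r = -0.189, a single value). For Ido1, Haao and Kmo they deviated in the same direction. No paired value changed a call. At an unadjusted p under 0.05 limma gave 1 of the 11 with the replicate block, against 2047 of all 22626. It gave 1 under median centring, against 2794, and 0 with the crossed block, against 3081. The adjusted p of the 11 probe sets went no lower than 0.168, without TCDD replicate 1. Of 129 alternative values of the 11 probe sets, 7 changed sign, and of 379 for the other named genes 9 did. The differences that changed sign were at most 0.20 in size, and the cause was not tested. Both totals include the replicate blocks, the other priors and the fit without dim probe sets. Those runs leave each difference as it was, so they could not change its sign. Under quantile normalization Haao went to 0.19, Slc7a5 to 0.10 and Irf1 to 0.18. Under cyclic loess Kynu went to -0.016, Haao to 0.14, Ido2 to -0.0081, Slc7a5 to 0.032, Irf1 to 0.11 and Cyp1a1 to -0.026. With 1 array left out Kynu ranged from -0.05 (without TCDD replicate 1) to 0.15, Haao from -0.25 to 0.05 (without DMSO replicate 1 or TCDD replicate 2), Ido2 from -0.05 (without DMSO replicate 1) to 0.15, Slc7a5 from -0.35 to 0.05 (without TCDD replicate 2) and Irf1 from -0.50 to 0.10 (without TCDD replicate 1). The brightest Wars1 probe set gave 0.05 and the mean of its 4 probe sets -0.16. Median centring did not shrink the bright differences: Got2 was -0.75, Slc3a2 -0.55, Ifngr1 -0.85 and Cxcl9 -0.85. With 1 array left out Kmo ranged from -0.25 to -0.95 and Ido1 from 0.25 to 0.65. Their groups did not overlap, so leaving out 1 array could not reverse either sign. The replicate blocks, the other priors and the fit without dim probe sets left both differences as they were. Only the scalings could change the signs, and they did not. Under quantile normalization, median centring and cyclic loess Kmo was -0.25, -0.65 and -0.32, and Ido1 was 0.40, 0.40 and 0.38. Dim probe sets limit Tdo2, Afmid and 2 probe sets of Wars1, which dropped out of the fit without dim probe sets. Ido1 stayed in that fit only through its TCDD arrays. The threshold is set on the mean of all 4 arrays, and the DMSO mean of Ido1, 5.30, lay below it.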
